A study of Caenorhabditis elegans with 2 samples.

Results

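The binding of MXL-2 to chromosome X was examined in whole L4 larvae of Caenorhabditis elegans by chromatin immunoprecipitation and sequencing (ChIP-seq). A region here is a line of the authors' thresholded list for the whole experiment, with overlapping lines joined and the strongest summit kept, and a region was taken when it lay on X. The 254 lines on X joined to 251 regions, of 968 regions (983 lines) in all, and the other 717 regions lay on the 5 autosomes. The study has 1 group: strain RW12316, in which mxl-2 on chromosome III carries a CRISPR insertion that adds TY1, EGFP and 3xFLAG tags, 48 h old after synchronisation as starved L1. There were 2 biological replicates, precipitated with an anti-GFP antibody per the description in the labels, whose antibody field reads mxl-2, and the sex of the larvae was not collected, per the labels. Whole animals were used, so a region cannot be placed in a cell type. No untagged, untreated or input library was analysed here. X and autosomes were read in the same libraries, so they were set side by side over the 2 replicates, and a paired exact permutation test over 2 libraries cannot go below p = 0.5. No p-value is therefore given. Shares carry exact (Clopper-Pearson) 95% intervals over regions, which cover counting error only, and each comparison is also given in each replicate's own thresholded list.

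MXL-2 belongs to the Myc-Max-Mondo network of transcription factors with a basic helix-loop-helix and a leucine zipper, in which a Max-like protein pairs with a partner and the pair binds E-boxes, of which CACGTG is the best known. In C. elegans its known partner is MML-1, while MDL-1 is a Mad-like protein and MXL-3 another Max-like protein of the network. Chromosome X differs from the autosomes in gene content and regulation: it holds many tRNA genes, and in hermaphrodites the dosage compensation complex is loaded at recruitment sites on X and lowers transcription from it.

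The 8 strongest X regions found in both replicates' lists are shown because their summits carry the E-box. Each window is 61 bp centred on the summit, plus strand of ce11, read from the RefSeq assembly of the same build, with CACGTG in capitals.
mdl-1 promoter, X:6742209-6742269: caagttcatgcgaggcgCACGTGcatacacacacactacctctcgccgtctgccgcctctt
abts-4 intron near mdl-1, X:6750250-6750310: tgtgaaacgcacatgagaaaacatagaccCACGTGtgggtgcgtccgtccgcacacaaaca
Upstream of mxl-3, X:13353639-13353699: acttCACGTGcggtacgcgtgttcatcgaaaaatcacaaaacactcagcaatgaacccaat
R07E3.4 intron, X:10332474-10332534: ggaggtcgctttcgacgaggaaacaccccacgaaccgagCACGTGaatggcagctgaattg
Near C49F8.15, X:13358744-13358804: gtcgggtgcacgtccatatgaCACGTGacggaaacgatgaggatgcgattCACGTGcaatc
H18N23.2 intron, X:17633320-17633380: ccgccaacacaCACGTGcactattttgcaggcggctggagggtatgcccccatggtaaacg
Downstream of the mdl-1 start, X:6744005-6744065: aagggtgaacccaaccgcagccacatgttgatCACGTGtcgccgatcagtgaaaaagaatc
mxl-3 promoter, X:13351449-13351509: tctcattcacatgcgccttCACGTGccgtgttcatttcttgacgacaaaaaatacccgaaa
All 8 windows held CACGTG, and the one near C49F8.15 held it at 2 places. By contrast, the strongest X region found in both lists that overlaps a tRNA gene and has CGAACC, a part of the internal B box read by the tRNA transcription machinery, is given next with that word in capitals on either strand. This example was chosen after its values were seen.
tRNA-Ala gene in a him-4 intron, X:9743622-9743682: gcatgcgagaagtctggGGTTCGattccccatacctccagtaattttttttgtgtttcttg

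Regions were denser on X than on the autosomes. X held 25.9% of the regions (251 of 968, 95% interval 23.2 to 28.8) on 17.7% of the assembled length and with 13.7% of the protein-coding genes. The density was 14.2 regions per Mb on X and 8.69 per Mb on the autosomes, a ratio of 1.63. Per 100 protein-coding genes there were 9.19 regions on X and 4.16 on the autosomes. The replicates gave the same picture: X held 122 of 448 regions in replicate 1's list and 123 of 454 in replicate 2's, and the ratio of densities was 1.74 ± 0.00867 (SD, n = 2). X ranked above every autosome in the whole-experiment list and in both replicates' lists. The autosomes ranged from 7.03 per Mb (V) to 9.72 per Mb (III) in the whole-experiment list.

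The surplus was set in the thresholded lists and not among the ranked candidates they were taken from. The ranked candidates had a ratio of 1.03 in the whole-experiment list, 1.02 in replicate 1 and 1.03 in replicate 2, and X held 18.1%, 18.0% and 18.1% of them. Their median signal, the enrichment value that the authors' peak calling gave, was 22.5 on X and 22.4 on the autosomes. Of the ranked candidates, 254 of 16585 on X (1.53%) and 729 of 75203 on the autosomes (0.969%) were in the thresholded list. The ratio was higher among regions found in both replicates' lists, of which 88 of 289 (30.4%) lay on X, a ratio of 2.04.

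**Figure D1:**
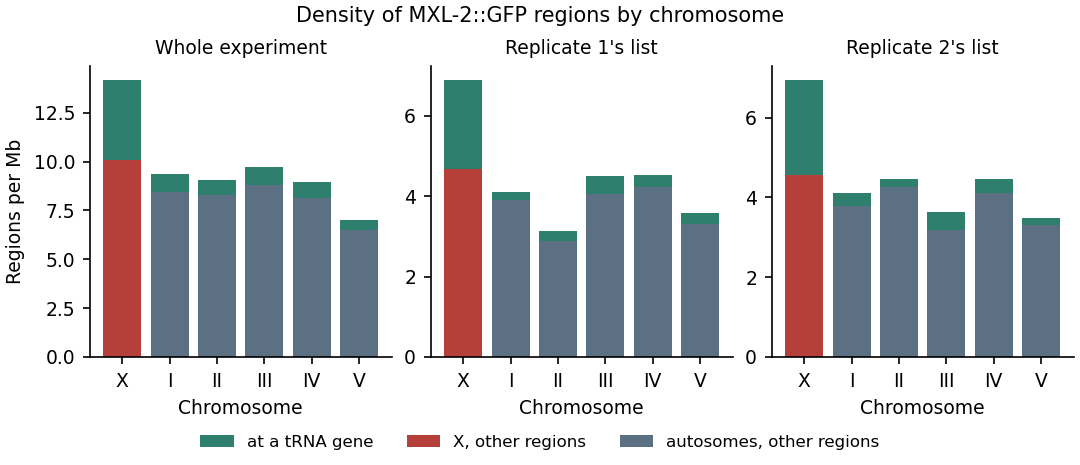
MXL-2::GFP regions per Mb (y axis) on each chromosome (x axis) in the whole-experiment list and in each replicate's own list, with regions that overlap a tRNA gene stacked in green on the others (red for X, grey for autosomes). X stands highest in all 3 panels, at 14.2 regions per Mb in the whole-experiment list, and 4.06 per Mb of that is regions at tRNA genes.

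tRNA genes took a large share of the X regions. On X, 72 of 251 regions (28.7%, 23.2 to 34.7) overlapped a tRNA gene, against 64 of 717 on the autosomes (8.93%, 6.94 to 11.3). In replicate 1's list these were 39 of 122 on X and 24 of 326 on the autosomes, and in replicate 2's list 42 of 123 on X and 24 of 331 on the autosomes. The mean share over the replicates was 33.1% ± 1.54 on X and 7.31% ± 0.0786 on the autosomes (SD, n = 2). X carries 276 of the 612 annotated nuclear tRNA genes (45.1%), and tRNA genes make up 0.116% of its bases against 0.0305% of autosomal bases. Counted per gene, regions overlapped 77 of 276 tRNA genes on X (27.9%) and 70 of 336 on the autosomes (20.8%). In the replicates' own lists the shares per gene were 15.9% and 16.7% on X and 8.04% and 7.44% on the autosomes.

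Without the regions at tRNA genes X still had the highest density, at 10.1 regions per Mb against 7.91 on the autosomes, a ratio of 1.28 in the whole-experiment list. The ratio without them was 1.28 in replicate 1's list and 1.23 in replicate 2's, and 1.52 among regions in both lists. These values in single lists were chosen after seeing the data. X ranked above every autosome in each of those lists when regions at tRNA genes were left out.

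The 72 X regions at tRNA genes had moderate signals within a narrow range. Their signals ran from 60.1 to 164, with a median of 89.2, against 47.1 to 1615 with a median of 81.8 for the other 179 X regions. The summit lay inside the tRNA gene in 60 of 72 and within 100 bp of it in all 72. CACGTG was near the summit of none of the 72 (exact 95% upper limit 4.99%), and CGAACC was near that of 41, against 2 of the other 179. On X 47 of the 72 summits were intergenic and 24 lay in introns of protein-coding genes. In both replicates' lists were 26 of 72 on X (36.1%, 25.1 to 48.3) and 11 of 64 on the autosomes (17.2%, 8.90 to 28.7).

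The strongest X region at a tRNA gene lay at a tRNA-Gly gene (X:3036062-3036170), with a signal of 78.0 in replicate 1 and 87.0 in replicate 2. The next, at a tRNA-Leu gene near C04A11.5 (X:13665437-13665696), had signals of 63.6 and 78.3. By isotype, regions overlapped 10 of 20 tRNA-Gly genes on X, 7 of 23 tRNA-Glu genes, 7 of 18 tRNA-Lys genes, 7 of 20 tRNA-Pro genes, 7 of 18 tRNA-Ser genes and 6 of 27 tRNA-Arg genes, but none of 5 tRNA-Trp genes. Of the 20 isotypes with genes on both, 12 had a higher overlapped share on X than on the autosomes and 8 a lower one. tRNA-Glu had 7 of 23 on X and 1 of 18 on the autosomes, and tRNA-Tyr 4 of 8 on X and 0 of 11 on the autosomes. In the other direction, tRNA-Cys had 2 of 7 on X and 4 of 6 on the autosomes, and tRNA-Thr 2 of 14 on X and 5 of 20 on the autosomes. Most of these genes have identical copies: 219 of the 276 X genes share their whole sequence with another tRNA gene, and 66 of these (30.1%) were overlapped by a region, against 11 of the 57 with no identical copy (19.3%). On the autosomes the shares were 23.6% of 250 genes with an identical copy and 12.8% of 86 without. The sources used here do not say how reads that match several copies were assigned, so a region at one copy may hold reads of another.

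Other noncoding genes varied by class. Genes annotated as ncRNA, apart from the classes named here, were overlapped by 74 of 251 X regions (29.5%, 23.9 to 35.5) and 129 of 717 autosomal regions (18.0%, 15.25 to 21.003). Many of these 74 X regions also overlapped a tRNA gene and are counted above. On X 72 regions overlapped a tRNA gene, while 103 of 251 (41.0%) overlapped a noncoding RNA gene of any class, against 182 of 717 on the autosomes (25.4%). Counted per gene, regions overlapped 81 of 2520 ncRNA genes on X (3.21%) and 155 of 5244 on the autosomes (2.96%). Of snRNA genes they overlapped 1 of 3 on X and 11 of 126 on the autosomes. Only 1 X region overlapped a snoRNA gene, against 43 autosomal regions, and X has 33 of the 346 annotated snoRNA genes. Regions overlapped 1 of 33 snoRNA genes on X (3.03%) and 43 of 313 on the autosomes (13.7%). Of the 74 miRNA genes on X none was overlapped, which allows a share of up to 4.05% when the limit is set at 3 counts of the total, and of 187 on the autosomes 1 was. No X region overlapped a pseudogene, of which X has 178.

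Regions on X lay farther from gene starts. The summit fell at a promoter, here the 1000 bp to either side of the start of a protein-coding gene, in 85 of 251 X regions (33.9%, 28.0 to 40.1) and in 327 of 717 autosomal regions (45.6%, 41.9 to 49.3). The replicates' means were 34.3% ± 2.11 on X and 46.0% ± 1.23 on the autosomes (SD, n = 2). Such promoter windows cover 28.9% of the bases of X and 36.0% of autosomal bases. The median distance to the nearest 5' end was 1885 bp on X and 1198 bp on the autosomes, and 18 of 251 X regions against 112 of 717 autosomal ones lay within 200 bp. Fewer X regions lay within 1000 bp of 2 or more 5' ends (7 of 251, 2.79%, against 92 of 717 on the autosomes, 12.8%). For the 200 bp distance and for 2 or more 5' ends the matching shares of bases were not counted. Intergenic summits made up 64.5% on X (58.3 to 70.5) and 54.7% on the autosomes (50.9 to 58.4), where intergenic bases are 44.5% of X and 35.8% of the autosomes. Of the protein-coding genes, 88 of 2731 on X (3.22%) and 404 of 17242 on the autosomes (2.34%) had a region within 1000 bp.

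**Figure D2:**
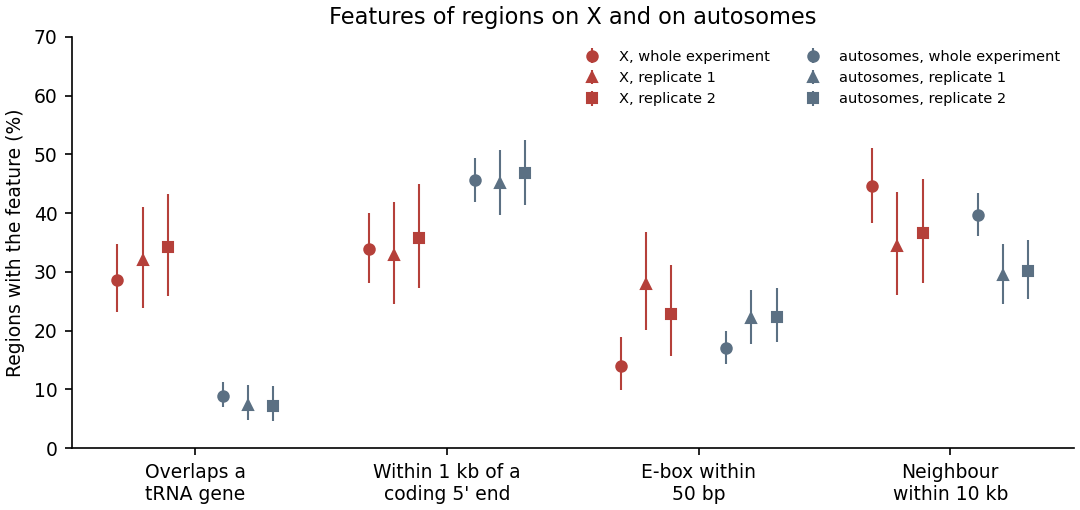
Share of regions with each feature (y axis, %), on X in red and on autosomes in grey, in the whole-experiment list (circles) and in the lists of replicate 1 (triangles) and replicate 2 (squares), with exact 95% intervals over regions. Overlap with a tRNA gene was 28.7% on X and 8.93% on autosomes in the whole-experiment list. The E-box intervals of X and autosomes overlap in each list.

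The E-box share on X depended on which list was read. Searched within 50 bp of the summit, CACGTG was present at 35 of 251 X regions (13.9%, 9.91 to 18.9) and at 122 of 717 autosomal regions (17.0%, 14.3 to 19.97). In the replicates' own lists the order was the other way, at 27.9% on X against 22.1% on the autosomes in replicate 1 and 22.8% against 22.4% in replicate 2. Windows of the same length held the E-box in 1.32% of X and 1.74% of the autosomes. Leaving out regions at tRNA genes, the shares were 19.6% on X and 18.7% on the autosomes. Among the regions in both lists 26 of 88 on X (29.5%) and 58 of 201 on the autosomes (28.9%) had it.

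On X the E-box went with the strongest regions. The median signal was 194 over the 35 X regions with CACGTG and 81.4 over the 216 X regions without it. Those in both replicates' lists were 26 of 35 (74.3%, 56.7 to 87.5) with the E-box and 62 of 216 (28.7%) without it. On the autosomes 58 of 122 regions with the E-box (47.5%, 38.4 to 56.8) were in both lists. When all 968 regions were put in 4 classes of equal size by signal, the E-box share from the highest class to the lowest was 31.6%, 5.56%, 8.20% and 5.00% on X, against 31.3%, 20.2%, 9.39% and 8.24% on the autosomes. The X share was thus close to the autosomal one in the highest class and below it in the next class, where 3 of 54 X regions had the word. These classes include the regions at tRNA genes, of which 0 of 72 on X and 0 of 64 on the autosomes had CACGTG. Such regions are a larger part of the X regions.

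Signal was similar on X and on the autosomes. The median was 83.7 on X and 81.4 on the autosomes, a ratio of 1.03, and the ratio in the replicates' own lists was 1.06 and 1.08. Without regions at tRNA genes the order turned, to 81.8 on X and 82.2 on the autosomes. X held 7 of the 20 strongest regions, 17 of the 50 strongest and 30 of the 100 strongest. The highest signal class had 76 of its 242 regions on X (31.4%), and the 3 lower classes 54, 61 and 60.

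The strongest X regions gathered at genes of the network itself. At mdl-1, the region at −112 bp from the 5' end (X:6742019-6742487) had signals of 817 in replicate 1 and 785 in replicate 2, and 1615 in the whole experiment. A region 7929 bp past the mdl-1 start, inside abts-4, which encodes an anion transporter, had 674 and 610. Between them lay regions at 1684 bp, with 226 and 280, and at 639 bp in an mdl-1 intron, with 114 and 131. Upstream of the promoter region, at −589 bp, lay one with 157 and 185. All 5 were in both replicates' lists, with the replicates close to each other in each. They are the strongest of 10 regions nearest to mdl-1, of which 7 were in both lists. Among the rest, the region at 5785 bp had 61.9 and 62.9, and that at 6847 bp 122 and 49.5. Those at 2382 bp and 3379 bp had 38.9 and 53.3, and 34.9 and 45.5. At 7172 bp there was no candidate in replicate 1 and 60.5 in replicate 2.

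At mxl-3, farther right on X, the strongest region lay at −2865 bp (X:13353544-13353806), with 355 in replicate 1 and 393 in replicate 2. A region at −675 bp (X:13351343-13351609) had 260 and 206. Toward the neighbouring gene C49F8.15, whose product is uncharacterized, intergenic regions lay 3812 bp and 2505 bp downstream of its 5' end. They had 278 and 289, and 92.5 and 103. The plot of signal along X shows these sites as the 2 tallest stacks of points. Both network genes on X had a promoter region in each replicate's list, and of the 3 autosomal members (mxl-1, mxl-2 and mml-1) 0 had one in the whole-experiment list.

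The other strong X regions lay at genes outside the network. R07E3.4, annotated as an ADP/ATP translocase that exchanges nucleotides across the mitochondrial membrane, had a region in its intron at 847 bp (X:10332375-10332617) with signals of 304 and 346, and one at −206 bp with 219 and 224. acly-1, annotated as ATP-citrate synthase, which makes cytosolic acetyl-CoA for fatty acid synthesis, had a region at 255 bp in a coding exon (X:1479713-1479902) with 164 and 245, and one at −1387 bp with 154 and 126. In the second pair replicate 1 was the higher and in the first replicate 2, so the replicates did not differ in one direction. H18N23.2, annotated as a regulatory subunit of protein phosphatase 1, had a region at 7521 bp in its intron with 263 and 271, and one at −137 bp with 200 and 217.

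Further regions among the 20 strongest lay at R03E9.2 (−4472 bp, signals 223 and 214), acl-12, an acyltransferase gene of phospholipid synthesis (−4064 bp, 170 and 177), mans-3, a mannosidase gene (−175 bp, 159 and 179), T04C10.11, with the summit in an intron of atf-4, which encodes a bZIP factor of the stress response (720 bp, 174 and 161), and C30G4.4 (8127 bp, 82.0 and 111). All 20 strongest X regions were in both replicates' lists, 18 had CACGTG within 50 bp, and none overlapped a tRNA gene. The 2 without it, the mdl-1 region at −589 bp and the acly-1 region at −1387 bp, had the word within 100 bp. The 5 weakest, nearest to F18E9.1 (47.1), bet-2, a bromodomain gene (52.6), acdh-10, an acyl-CoA dehydrogenase gene (54.1), adt-1, a metalloproteinase gene (54.9), and fkh-9, a forkhead factor gene (55.5), were in neither replicate's list, and 1 of them, at bet-2, had CACGTG.

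**Figure D3:**
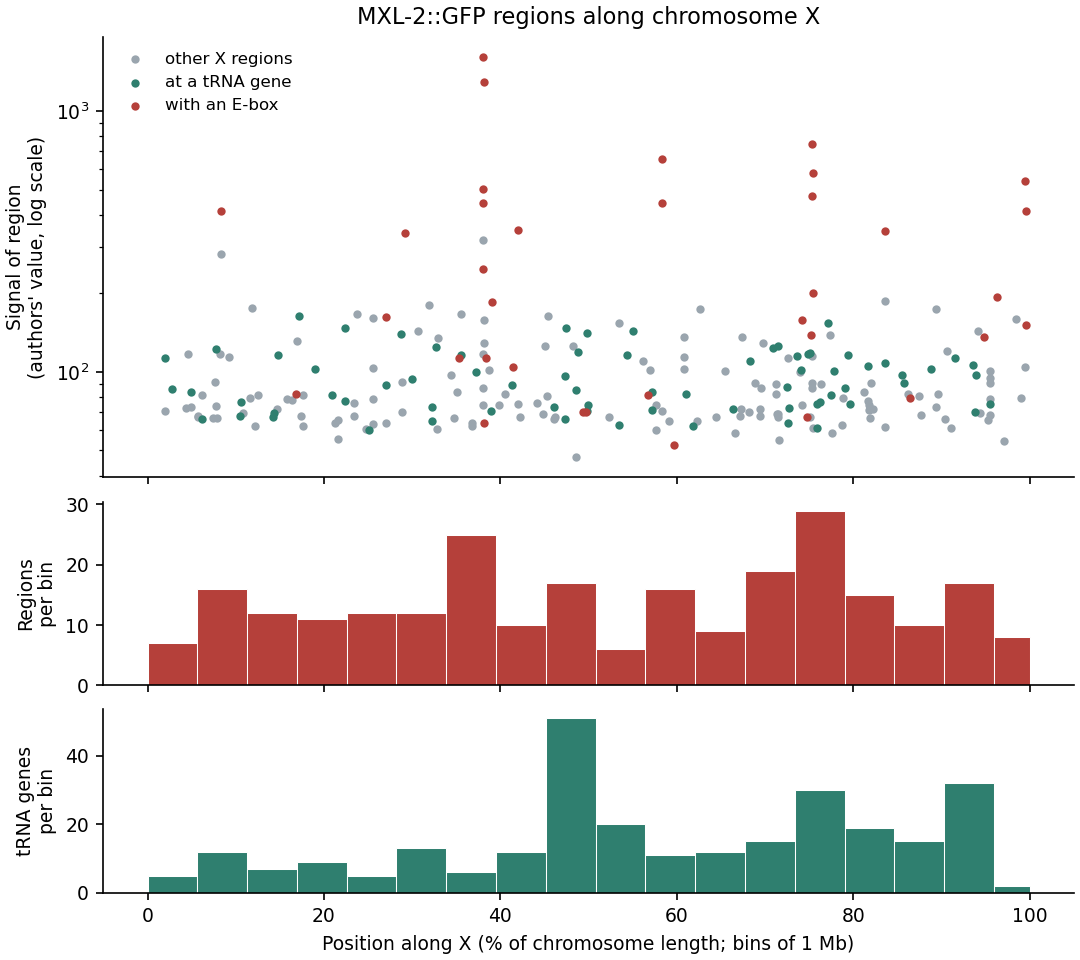
Regions along X: the upper panel gives each region's signal (log scale) against its position in percent of the chromosome's length, with regions at tRNA genes in green, regions with an E-box in red and others in grey. The lower panels give regions and tRNA genes per 1-Mb bin: the bins with most regions hold 29 and 25, while the bin with most tRNA genes (51) holds 17 regions.

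Regions were spread over the whole of X, with more to the right. Cut into 3 parts of equal length, the left, middle and right of X held 70 (27.9%, 22.4 to 33.9), 80 (31.9%, 26.2 to 38.03) and 101 (40.2%, 34.1 to 46.6) regions, against 31.9%, 35.7% and 32.4% of the protein-coding genes of X. The counts were 31, 39 and 52 in replicate 1's list and 25, 48 and 50 in replicate 2's, so the left part was lowest in both lists, and the right and middle parts were 2 regions apart in replicate 2. From left to right the parts of X held 51, 107 and 118 tRNA genes, and 22, 21 and 29 regions at tRNA genes. On chromosome II the right part held 47.1% of the regions, while on the other autosomes the left or middle part held most. The 1-Mb bins held 6 to 29 regions with a median of 12. The highest, from 13 to 14 Mb, includes the mxl-3 site and had 16 regions in each replicate's list. The next, from 6 to 7 Mb, includes the mdl-1 site with 25 regions, 15 and 21 in the replicates. Across the 17 whole bins Spearman's rho was 0.751 between the replicates, 0.296 with protein-coding genes and 0.291 with tRNA genes, given as a description because bins share their libraries. From 8 to 9 Mb lay 51 tRNA genes and 17 regions, of which 9 were at tRNA genes.

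Neighbouring regions lay closer on X, as the density implies. The median distance between neighbouring summits was 36828 bp on X and 63966 bp on the autosomes, and the longest gap was 418145 bp on X and 1289202 bp on the autosomes. To the nearest summit on either side the median was 13207 bp on X, 21277 bp on the autosomes and 9582 bp on IV alone. A neighbour within 10 kb was found for 112 of 251 X regions (44.6%, 38.4 to 51.0) and 285 of 717 autosomal regions (39.7%, 36.1 to 43.4). Chromosome IV stood above X, with 82 of 157 regions (52.2%), and the other autosomes stood below X. The replicates' means were 35.5% ± 1.53 on X and 29.8% ± 0.540 on the autosomes (SD, n = 2). Within 1000 bp the shares were 11.6% on X and 10.2% on the autosomes in the whole-experiment list, and in replicate 1's list the order turned, at 6.56% on X and 8.90% on the autosomes. Counting each run of regions with summits within 10 kb of the next as 1 locus, a count added after seeing the data, X had 178 loci and the autosomes 546, or 10.05 and 6.61 per Mb, a ratio of 1.52.

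**Figure D4:**
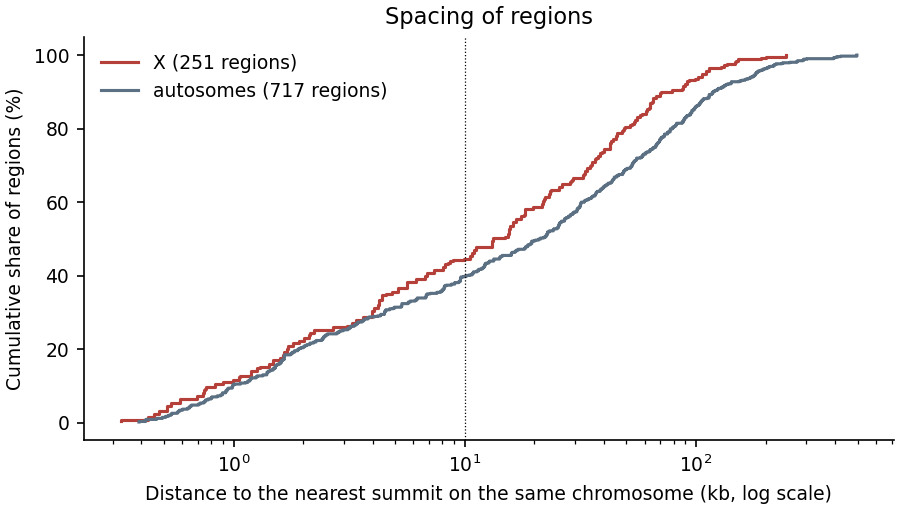
Cumulative share of regions (y axis, %) by distance to the nearest summit on the same chromosome (x axis, kb, log scale), for X in red and autosomes in grey, with a dotted line at 10 kb. The curves run together up to a few kb and then part, with X at 44.6% and autosomes at 39.7% by 10 kb.

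Of the 178 loci on X, 139 were single regions, 25 pairs, 8 runs of 3 and 6 runs of 4 or more. The 6 longest runs held 38 regions (15.1% of X regions), against 12 such runs with 58 regions (8.09%) on the autosomes, and the longest had 12 regions on X and 7 on the autosomes. The run of 12 spans R03E9.2, mdl-1 and abts-4 (X:6736455-6750489): its signals ran from 63.8 to 1615, 9 regions were in both lists and 6 had CACGTG. The run of 8 at mxl-3 and C49F8.15 (X:13350923-13360952) had signals from 60.9 to 750.3, with 4 regions in both lists and 4 with CACGTG. A run of 4 in H18N23.2 (X:17630981-17641102) was in both lists throughout, with 3 E-boxes.

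The other long runs were weaker. A run of 6 regions within 5 kb near C30E1.4, annotated as a SID1-like transmembrane protein (X:16928170-16932849), had signals from 68.1 to 101, no CACGTG and 1 region in both lists. A run of 4 at atf-4 and epn-1, an epsin-like gene of endocytosis (X:14803957-14819014), had signals from 61.2 to 347, with 2 regions in both lists. A run of 4 at pdi-2, a protein disulfide isomerase gene, and nhr-35 (X:4523997-4532411) had signals from 62.9 to 161, no CACGTG and 1 region in both lists. The long X runs thus differed in their E-boxes: the run at atf-4 had 1 region with CACGTG, and those near C30E1.4 and nhr-35 had none.

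A second sequence word was seen at X regions with no E-box. GCGCAGGG, searched on both strands within 50 bp of the summit, is the core of the MEX motif known from the recruitment sites of the dosage compensation complex in C. elegans. It lay at 6 of 251 X regions (2.39%, 0.882 to 5.13) and at 3 of 717 autosomal regions (0.418%, 0.0864 to 1.22), beside 0.0388% of all windows of that length on X and 0.0263% on the autosomes. In the replicates' lists it lay at 6 X regions each, against 1 and 0 autosomal regions. The windows that follow are the 40 bp around each copy, on the strand that reads GCGCAGGG, shown because of the bases that come before the word.
Near cest-16, in a mom-1 intron, X:6296560-6296599, plus strand: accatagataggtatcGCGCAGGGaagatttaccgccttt
Near F20B6.9, X:4209250-4209289, minus strand: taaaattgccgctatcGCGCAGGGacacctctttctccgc
Upstream of xol-1, X:8036419-8036458, plus strand: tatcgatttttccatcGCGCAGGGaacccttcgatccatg
Upstream of xol-1, X:8036385-8036424, minus strand: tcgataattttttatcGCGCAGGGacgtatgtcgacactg
Y41G9A.17 intron, X:2997107-2997146, minus strand: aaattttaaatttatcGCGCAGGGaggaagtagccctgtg
Near gtr-1, X:806658-806697, plus strand: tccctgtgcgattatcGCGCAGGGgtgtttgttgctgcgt
Near ins-39, X:1345040-1345079, plus strand: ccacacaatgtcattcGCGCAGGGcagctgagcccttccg
In 5 of the 6 regions the word follows ATC, and the region near xol-1 holds it on both strands.

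Counted over whole regions and not only near summits, a count added after seeing the data, 12 X regions (4.78%, 2.49 to 8.20) and 4 autosomal regions (0.558%, 0.152 to 1.42) held GCGCAGGG. X as a whole has 81 copies of the word and the autosomes 233, and 16 of the X copies (19.8%) and 4 of the autosomal copies (1.72%) lay in a region. Of copies that follow ATC there were 13 on X and 2 on the autosomes, and 9 of the 13 lay in a region found in both replicates' lists, against 0 of the 2. ATC was picked from the windows shown above, and the 9 include those copies, so this share is in part built in. In a ranked candidate lay 11 of the 13 and 2 of the 2. The 12 X regions had signals from 70.3 to 174 with a median of 137, 9 of them were in both lists, 8 were intergenic, and 4 were at a promoter. CACGTG lay near the summit of 1 of the 12, and 1 overlapped a tRNA gene.

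Replicate 1 gave the lower signal at the 4 strongest of the 12, and replicate 2 the lower at others, so the replicates differed in both directions. The strongest, near W02H3.3 (X:11094047-11094306), had 66.5 in replicate 1 and 100 in replicate 2. The one near cest-16 had 59.2 and 108, the one near F20B6.9 80.2 and 95.4, and the one near F22H10.2 75.1 and 59.1. Shorter forms of the word were searched later. CGCAGGG lay at 8 X regions (3.19%) and 8 autosomal regions (1.12%), and GCGCAGG at 11 X regions (4.38%) and 9 autosomal regions (1.26%). Windows held them at 0.156% and 0.184% on X and 0.152% and 0.187% on the autosomes. Both forms are parts of GCGCAGGG, so each count includes again the 6 X and 3 autosomal regions with the full word. The shares of the shorter forms are therefore not separate from those of the full word.

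Sex determination and dosage compensation genes on X had no region at their promoters. The lists are too short to tell 0 from the share of all genes. Of the sex determination list, 0 of 6 X members (xol-1, fox-1, sex-1, ceh-39, sdc-1 and sdc-2) and 0 of 8 autosomal members had a region within 1000 bp, beside the 3.22% of X genes and 2.34% of autosomal genes given above. xol-1, the switch gene that reads the number of X chromosomes, had 1 region within 10 kb, at −4880 bp (X:8036365-8036445), with signals of 68.3 in replicate 1 and 94.5 in replicate 2, found in both lists and holding GCGCAGGG on both strands. ceh-39, an X signal element that encodes a homeodomain protein, had 1 region within 10 kb (X:1858707-1858966), with a signal of 67.95 in the whole experiment. That region overlapped a tRNA-Glu gene, lay nearest to T26C11.8 and was in neither list, with 32.9 in replicate 1 and 35.3 in replicate 2. Of the 10 dosage compensation genes, 2 lie on X, sdc-1 and sdc-2, and neither had a region within 10 kb.

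The remaining gene lists differed in their share of X members with a promoter region. Of 24 nuclear hormone receptor genes on X, 3 had a promoter region (12.5%), against 3 of 246 on the autosomes (1.22%). They were nhr-35, at −409 bp with signals of 89.2 and 73.4, nhr-255, at −519 bp with 55.7 and 44.8 and at a tRNA-Leu gene, and nhr-32, at −350 bp with no candidate in replicate 1 and 45.7 in replicate 2. nhr-35 and nhr-255 were in both lists and nhr-32 in neither. The lipid list had 2 of 3 X members with a promoter region, acly-1 and aak-2, which encodes a catalytic subunit of the energy sensor AMPK (900 bp, 61.0 and 73.2, with CACGTG), against 2 of 31 on the autosomes, and hosl-1, for a hormone-sensitive lipase, had none.

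Of the 5 vitellogenin genes on X, which encode yolk proteins, vit-2 had a region at 218 bp (48.8 and 35.9, in replicate 1's list only), and vit-1, vit-3, vit-4 and vit-5 had none. On the autosomes 1 of 1 had one. Among cuticle collagens 1 of 27 on X, col-185, had one, at a tRNA-Pro gene (42.5 and 29.4, in neither list), against 6 of 129 on the autosomes. No homeobox gene of 21 on X had one, against 1 of 60, no ion channel gene of 24, against 3 of 77, and no muscle structural gene of 5, against 0 of 13. These counts rest on few genes and the members were chosen by function, so they are given beside the 3.22% of all X genes as descriptions.

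X regions were found again in the other replicate at a higher rate than autosomal ones in both directions, although the intervals overlap. Of the whole-experiment regions, 88 of 251 on X (35.1%, 29.2 to 41.3) and 201 of 717 on the autosomes (28.0%, 24.8 to 31.5) were in both replicates' lists, 66 and 213 in 1 list, and 97 and 303 in neither. Within the 4 signal classes, from high to low, the share in both lists was 92.1%, 33.3%, 0% and 0% on X. On the autosomes it was 90.4%, 26.6%, 0.552% and 0%, so X and autosomes were closer in the highest class, which holds most of the shared regions. Of replicate 1's regions, 88 of 122 on X (72.1%, 63.3 to 79.9) and 203 of 326 on the autosomes (62.3%, 56.8 to 67.6) overlapped one of replicate 2. Of replicate 2's, 88 of 123 on X (71.5%, 62.7 to 79.3) and 202 of 331 on the autosomes (61.0%, 55.5 to 66.3) overlapped one of replicate 1. Of the 34 X regions of replicate 1 without a partner, 33 were ranked candidates in replicate 2, and of the 35 of replicate 2, 31 were candidates in replicate 1.

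**Figure D5:**
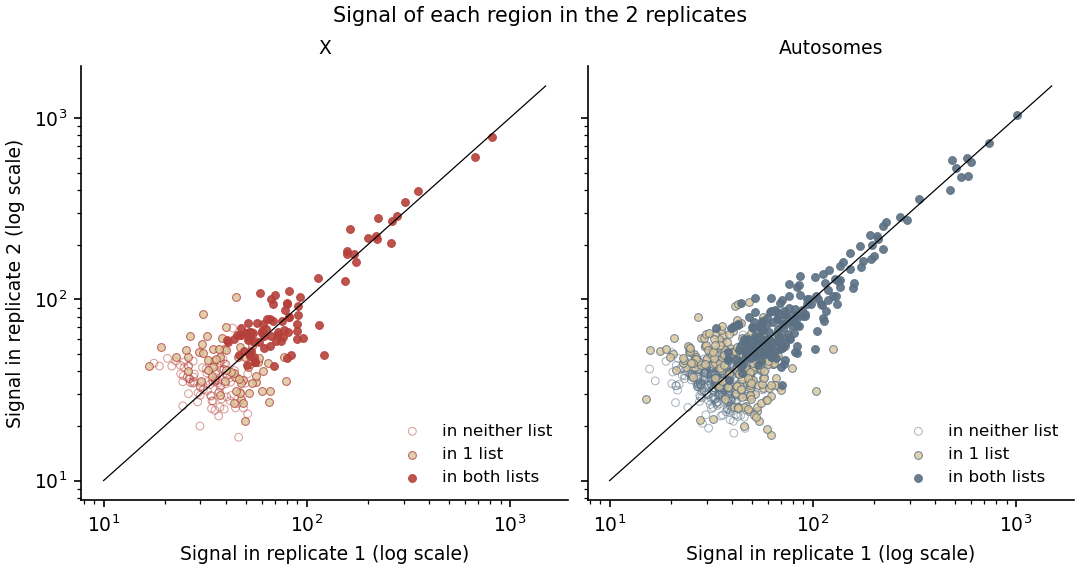
Signal in replicate 2 (y axis, log scale) against replicate 1 (x axis, log scale) for each whole-experiment region that was a candidate in both, with X on the left and autosomes on the right, filled by the number of replicate lists that hold it, and a line of equal signal. Regions in both lists lie near the line, at a median of 1.18-fold apart on X and 1.16-fold on autosomes.

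Signals of the replicates were close for the shared regions. Over the 88 X regions in both lists the replicates' signals differed by a median of 1.18-fold, and over the 201 autosomal ones by 1.16-fold, with 90% of them within 1.498-fold on X and 1.501-fold on the autosomes. Spearman's rho across these regions was 0.689 on X and 0.757 on the autosomes, as a description across regions of the same libraries. Over all regions with a candidate in both replicates (242 on X and 702 on the autosomes) rho was 0.593 on X and 0.495 on the autosomes. The X regions in both lists had signals of at least 90.9 in the whole experiment, those in neither at most 113, so shared and unshared regions overlap between these values. Just inside the limit of the thresholded list, an irreproducible discovery rate (IDR) of 0.01, lay X regions near alg-1 (62.3), M163.1 (66.3) and F13D11.3 (60.3), and just outside it candidates near ZK470.4 (82.5) and D1005.2 (65.7).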

How the data were processed

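Peak lists of the ChIP-seq experiment were read for the 2 biological replicates and for the whole experiment, on ce11. Per the file headers the authors derived them from filtered alignments together with 1 other input, and the thresholded lists had 1 more input; no source used here gives the type of these inputs. The sources used here name no aligner and no peak caller. The deposited signal is the authors' enrichment value per peak, set separately in each list, and it is used here only to describe and rank. A deposited column of the ranked lists gives −log10 of the IDR, and each line of the thresholded whole-experiment list matched a ranked candidate with an IDR of at most 0.01. The files give no read counts, so depth is unknown.

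Lines that overlapped were joined under their strongest summit. Genes came from Ensembl release 115 with RefSeq symbols for 19965 of 19973 protein-coding genes. Sequence came from the RefSeq assembly of the same build. A region was shared between lists where at least 1 bp overlapped. Motif words were searched on both strands within 50 bp of the summit. Python 3.11.15, numpy 2.4.6, scipy 1.17.1 and matplotlib 3.10.9 were used, and joins, runs, distances and overlaps were tested on simulated data. Named genes are those nearest to the 20 strongest and 5 weakest X regions, the strongest region of each run of 4 or more, and in each gene list up to 4 X members with a region within 1000 bp, or all X members of lists with 6 or fewer there. Genes at GCGCAGGG, at tRNA genes and at the list limit were named after their values were seen. Members, lists and alternatives were chosen with earlier results of these data known. No test was run, for the reason given above, and the value in each replicate stands in its place.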

Additional observations from a re-analysis of the deposited data

Results flagged for a closer look

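The strongest X candidate of the ranked list was not in the thresholded list. It lay at X:15810951-15811196, in intergenic sequence at −6937 bp from the start of Y7A5A.7, with a signal of 3599.5 in the whole experiment, above the 1615 of the strongest listed X region, and with 1967 in replicate 1 and 1842 in replicate 2. It stood out because it is a strong candidate outside the regions described above. It was past the IDR limit of 0.01, as were 280 X candidates in all, of which 26 (9.29%) were absent from the thresholded list, against 95 of 824 (11.5%) on the autosomes. The next strongest of the 26 had signals of 841 near dbd-18, 816 near Y7A5A.7 and 508 near Y102F5A.1. None of these 4 had CACGTG near its summit. None of the 26 was in either replicate's thresholded list, and the cause was not tested.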

How the results depend on the processing

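The density on X stayed above that of the autosomes under each alternative run. Its ratio was 1.63, and 1.485 in the conservative list, 1.711 for the 50% of regions of higher signal, 2.04 for regions in both lists, 1.277 without regions at tRNA genes, 1.289 without regions at noncoding RNA genes, 1.519 with each run as 1 locus and 1.52 in both lists without regions at tRNA genes. Leaving out a replicate it was 1.731 to 1.744, and 1.229 to 1.28 when regions at tRNA genes were left out too. The X share of regions was 30.45% in both lists, 21.51% without tRNA and 21.67% without noncoding RNA regions. The E-box share on X (13.9%) was 20.77% in the stronger 50%, 29.55% in both lists, 19.55% without tRNA and 20.27% without noncoding RNA regions, 20.72% within 100 bp, and 22.76% to 27.87% leaving out a replicate.

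The share with a neighbour within 10 kb (44.6%) was 32.31% in the stronger 50%, 30.68% in both lists, 35.46% at 5 kb, 58.57% at 20 kb, and 34.43% to 36.59% leaving out a replicate. The median gap (36828 bp) was 64230, 134946 and 59423 bp in the stronger 50%, in both lists and without noncoding RNA regions, and 84744 to 86621 bp leaving out a replicate, where fewer regions are listed. The promoter share (33.9%) was 17.13% at 500 bp and 51.79% at 2000 bp. In the stronger 50%, 67.69% of X regions were in both lists. The signal ratio (1.03) was 1.08 in the conservative list, 1.054 in the stronger 50%, 1.057 to 1.083 leaving out a replicate, and 0.996, the order turned, without tRNA regions; the cause was not tested. Read depth is unknown, so what it limits cannot be stated.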
